A study of Mus musculus with 6 samples.

Results

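The 10 B cell transcription factors described here are Pax5, Bach2, Ikzf1, Ikzf3, Irf4, Irf8, Foxo1, Klf2, Spib and Pou2af1. Every array probe annotated to these symbols was taken, which gave 19 of the 45281 probes on the array, for 10 of its 19057 annotated genes. A probe was kept for testing when its detection p-value was under 0.05 on at least 3 of the 6 arrays. The 17 kept probes covered 9 of the 10 genes, and Bach2 had no kept probe. Ikzf1 had 6 probes, Ikzf3 had 3, Foxo1 and Spib had 2 each, and the other members had 1 each.

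RNA came from freshly isolated splenic B cells of 3 Sle2 mice (B6.Sle2) and 3 B6 mice (wild type), with 1 Illumina BeadChip per mouse. Both strains have the C57Bl/6 background, and the Sle2 mice differ by a lupus susceptibility segment of chromosome 4 taken from the NZM2410 strain. The labels give neither the age nor the sex of the mice. They number the mice within each strain, and p-values measure the spread between these mice.

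Pax5 commits lymphoid progenitors to the B lineage and maintains that identity in mature B cells. Ikaros (Ikzf1) and Aiolos (Ikzf3) are zinc finger proteins that regulate chromatin at lymphoid genes. Spi-B (Spib) is an Ets protein that binds composite DNA elements together with Irf4 or Irf8, and OBF-1 (Pou2af1) is a coactivator of Oct proteins on octamer elements. Bach2 represses the plasma cell programme, while Foxo1 and Klf2 keep resting lymphocytes quiescent and direct their homing.

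Promoter sequences of the 3 members whose windows held the octamer or the MEF2 motif are shown. They were chosen with the strain differences known. Spib and Klf2 had the largest differences among the members, and Pou2af1 was at -0.14. A link between a motif and a strain difference was not tested. Each sequence is the 250 bases upstream of the gene's RefSeq start site in GRCm38.p6, printed 5′ to 3′ on the gene's strand. The Spib window is chr7:44532072-44532321 on the minus strand. The Klf2 window is chr8:72318812-72319061 on the plus strand, and the Pou2af1 window is chr9:51213440-51213689 on the plus strand. Capitals mark matches to the searched motifs.
Spib: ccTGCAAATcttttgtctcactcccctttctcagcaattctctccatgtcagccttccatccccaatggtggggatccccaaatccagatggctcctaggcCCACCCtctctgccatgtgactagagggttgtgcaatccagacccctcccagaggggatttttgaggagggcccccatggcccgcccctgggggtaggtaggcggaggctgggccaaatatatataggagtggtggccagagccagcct
Klf2: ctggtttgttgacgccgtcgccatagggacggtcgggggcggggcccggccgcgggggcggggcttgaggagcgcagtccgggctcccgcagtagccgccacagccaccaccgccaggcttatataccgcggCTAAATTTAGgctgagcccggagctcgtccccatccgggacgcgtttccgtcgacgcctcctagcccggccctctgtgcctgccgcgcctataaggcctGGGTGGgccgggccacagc
Pou2af1: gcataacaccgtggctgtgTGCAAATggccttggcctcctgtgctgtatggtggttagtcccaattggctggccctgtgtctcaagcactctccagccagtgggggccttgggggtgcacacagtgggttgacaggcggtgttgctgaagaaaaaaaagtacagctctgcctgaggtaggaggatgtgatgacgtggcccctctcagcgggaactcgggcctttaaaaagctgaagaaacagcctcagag

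RefSeq windows were on hand for 9 of the 10 members, all but Ikzf3. The motifs searched on both strands were the octamer core TGCAAAT, the Spi-type Ets core GAGGAAG, the Ets-IRF composite element and the interferon-stimulated response element. The forkhead element TGTTTAC, the Krüppel-like factor element CCACCC, the Ikaros core TGGGAA and the MEF2 element were searched too. None of these matches overlapped another within the 3 windows printed. The octamer core lay at positions -248 to -242 from the Spib start site and -231 to -225 from that of Pou2af1, and 3.56% of all 32851 promoter windows hold it. The Klf2 window held a MEF2 element at -118 to -109, a match found in 0.508% of windows. Krüppel-like factor elements stood at -149 to -144 in Spib, at -19 to -14 in Klf2 and at -243 to -238 in a window of Ikzf1. Of all windows, 28.1% hold one. A window of Irf8 held an Ikaros core at -242 to -237, found in 21.6% of windows. The Bach2 window held the Ets-IRF composite element at -17 to -8, found in 2.3% of windows. A match is a run of letters and not a shown binding site.

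Intensity medians before normalization were 53.6 to 56.7 on the Sle2 arrays and 50.4 to 52.1 on the B6 arrays. Detected probes numbered 17631 to 17923 on the Sle2 arrays and 17417 to 17809 on the B6 arrays. The 6 B cell defining genes used here (Cd79b, Ms4a1, Cd22, Cd37, Blk and Fcmr) were all detected, and their summed normalized intensity was 34706 to 36176 in Sle2 mice and 32837 to 37193 in B6 mice. Xist, which is made in female cells, was at 10.93 in Sle2 mouse 3 and 10.13 in B6 mouse 2, so each strain held 1 mouse with high Xist. Of these 2 mice, Sle2 mouse 3 also had the Y-linked gene Eif2s3y detected, at 5.36, and B6 mouse 2 did not. B6 mouse 3 had Xist at 5.89 together with Eif2s3y at 8.67. T cell markers were summed at 540 to 660 in Sle2 mice and 413 to 556 in B6 mice, with 6 of 8 detected, and Cd4 and Cd8a were not detected on any array. All 6 tested T cell markers had higher Sle2 means, with a median of 0.44, and Bcl11b (0.69), Zap70 (0.50) and Cd3g (0.41) did not overlap. Dendritic cell markers were summed at 548 to 768 in Sle2 mice and 495 to 645 in B6 mice, with 5 of 8 detected, while Itgax, Flt3 and Ccr9 were not detected. Among them Xcr1 was at -0.33 with all Sle2 mice below all B6 mice, whereas Siglech was at 0.49 and Clec9a at 0.40 with overlap. Natural killer markers had higher Sle2 means in 5 of 5 tested, and their sums were 1422 to 2006 in Sle2 mice and 1025 to 1701 in B6 mice. Platelet markers had lower Sle2 means in 6 of 6 tested, with Vwf at -0.54 and Clec1b at -0.53, and their sums were 334 to 365 in Sle2 mice and 356 to 684 in B6 mice. Erythroid markers were higher in 4 of 5 tested, with Slc4a1 at 1.13 and Sptb at 0.71, and their sums were 15637 to 20652 in Sle2 mice and 12058 to 22452 in B6 mice. Plasma cell markers had higher Sle2 means in 5 of 5 tested, and Mzb1 (0.19) did not overlap. Their sums did not overlap either, at 11445 to 12748 in Sle2 mice and 10218 to 10995 in B6 mice. Neutrophil markers were higher in 5 of 6 tested, with sums of 1613 to 1657 in Sle2 mice and 741 to 2582 in B6 mice. Monocyte and macrophage markers were higher in 5 of 7 tested. Their sums were 6798 to 10414 in Sle2 mice and 8237 to 9992 in B6 mice. None of these markers was called. Members of the group are also expressed in some of these cell types, and the part of such cells in the differences below was not tested. In a bulk sample, fewer cells of a type and less RNA per cell cannot be told apart.

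No member probe passed the test between the strains (limma, adjusted p under 0.05 over all 17861 kept probes), where 1.06% of all kept probes did. Of the 17 kept member probes, 14 had lower and 3 had higher means in Sle2 B cells, and their median difference was -0.14 on the log2 scale, against -0.0001 over all kept probes. With arrays scaled to equal medians, 10 of the 17 had lower Sle2 means, and their median was -0.02 against 0.11 over all kept probes. The median of all tested genes, by the brightest kept probe, was then 0.14. Relative to that median, Ikzf1 was at -0.04 and Pou2af1 at -0.13, the sign they had with quantile normalization. Without that adjustment the same scaling gave -0.25 for Klf2, -0.19 for the brighter Spib probe, -0.14 for Ikzf3, -0.08 for Foxo1 and -0.05 for Irf8, and relative to the median it gave -0.39, -0.33, -0.28, -0.22 and -0.19. The largest differences were those of Spib, at -0.36 and -0.64 by its 2 probes, and Klf2, at -0.38. Unadjusted p-values under 0.05 were found for 5 of the 17, against 17.2% of all kept probes. In 6 of the 17, all Sle2 mice lay below all B6 mice, against 10.8% of all kept probes with that order and 23.1% with no overlap in either direction. No member probe had all Sle2 mice above all B6 mice, an order found in 12.4% of all kept probes. Counting genes instead, with each taken at its brightest kept probe, 4 of the 9 tested members did not overlap, against 24.2% of all tested genes. The 6 probes belong to Spib, Ikzf3, Irf8 and Klf2.

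**Figure D1:**
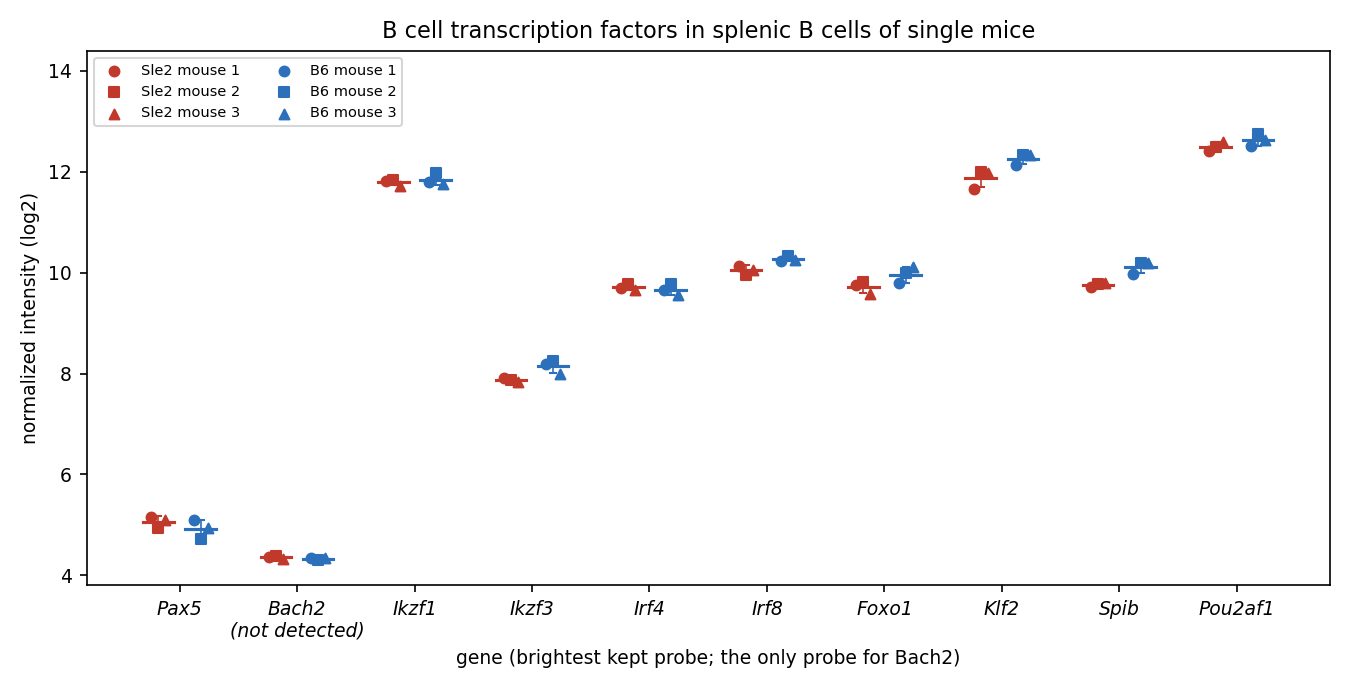
Normalized intensity (log2) of each transcription factor by its brightest kept probe, with 1 point per mouse, red for Sle2 and blue for B6, short lines for means and bars for SD (n = 3 each). The mice of the strains do not overlap for Ikzf3, Irf8, Klf2 and Spib, and Bach2, shown by its only probe, was not detected in any mouse.

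Levels below are normalized log2 intensities. Each probe binds its target with its own efficiency, so levels compare mice for 1 probe and do not order the genes. Pax5 was measured by 1 dim probe, with intensities before normalization of 72.7, 62.6 and 66.8 in Sle2 mice and 63.7, 53.5 and 60.1 in B6 mice. It was detected in all 3 Sle2 mice and in 2 of the 3 B6 mice. After normalization Pax5 was at 5.15, 4.95 and 5.09 in Sle2 mice and at 5.09, 4.72 and 4.93 in B6 mice. The strains overlapped, and the difference of 0.15 had a 95% interval of -0.12 to 0.42 (limma, adjusted p = 0.556).

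The only Bach2 probe was not detected in any mouse, with intensities of 41.7 to 45.7 in Sle2 mice and 38.5 to 42.5 in B6 mice. These lie below the median of every array, and whether the transcript is scarce or its single probe binds poorly was not tested. Pax5 and Bach2 are the 2 members on chromosome 4, the chromosome of the congenic segment. By gene order in the RefSeq table of GRCm38.p6, 95 other tested genes of chromosome 4 precede Pax5 and 40 precede Bach2, and none of these was called. Over the whole chromosome 30 of 575 tested genes were called, against 1.04% of all tested genes. The first called gene of that chromosome is Tmem38b, with 32 tested genes between it and Pax5. The 10 tested genes that flank Pax5 had differences of -0.10 to 0.40, and the 10 that flank Bach2 had differences of -0.10 to 0.20, with none called. Pou2af1 lies on chromosome 9, where 18 of 512 other tested genes were called, with none called among its 10 tested neighbours.

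Ikzf1 was detected in every mouse by 5 probes, which gave differences of -0.18 to 0.17. Its brightest probe was at 11.82, 11.83 and 11.72 in Sle2 mice and at 11.79, 11.97 and 11.76 in B6 mice. These values interleave, and the difference was -0.05 with a 95% interval of -0.27 to 0.18 (limma, adjusted p = 0.843). Of its kept probes, 4 had a lower Sle2 mean, and the third brightest had a higher one, at 0.17 (adjusted p = 0.452). That probe was at 9.45, 9.44 and 9.69 in Sle2 mice and at 9.45, 9.31 and 9.32 in B6 mice, so Sle2 mouse 3 stood highest and B6 mouse 1 reached the range of the other Sle2 mice. The fifth probe is annotated to the same RefSeq transcript and had a difference of -0.08. The sixth Ikzf1 probe, annotated to a cDNA clone, was not detected in any mouse.

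Ikzf3 had lower Sle2 means by all 3 of its probes, at -0.27, -0.11 and -0.19 from the brightest to the dimmest. The brightest was at 7.92, 7.88 and 7.83 in Sle2 mice and at 8.19, 8.26 and 7.99 in B6 mice. All Sle2 mice lay below all B6 mice by this probe, and its 95% interval was -0.51 to -0.04 (limma, adjusted p = 0.235). The dimmest probe, which is annotated to the RefSeq transcript, was at 6.35, 6.36 and 6.39 in Sle2 mice and at 6.68, 6.56 and 6.41 in B6 mice. By that probe B6 mouse 3 was only just above the Sle2 mice, and by the middle probe the strains overlapped.

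Irf4, which drives class switching and plasma cell formation, was at 9.69, 9.78 and 9.66 in Sle2 mice and at 9.66, 9.78 and 9.55 in B6 mice. The strains overlapped, with a difference of 0.05 and a 95% interval of -0.18 to 0.28 (limma, adjusted p = 0.833). Irf8, which regulates germinal centre and myeloid genes, was at 10.14, 9.96 and 10.06 in Sle2 mice and at 10.24, 10.32 and 10.25 in B6 mice. Every Sle2 mouse was below every B6 mouse for Irf8. The difference was -0.22 with a 95% interval of -0.44 to -0.0032 (limma, adjusted p = 0.285).

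Spib had the largest difference of any member probe by its dimmer probe, while its brighter probe differed by less than Klf2. The brighter probe (ILMN_2933168) was at 9.72, 9.77 and 9.79 in Sle2 mice and at 9.98, 10.19 and 10.19 in B6 mice. The difference was -0.36 (SE 0.10, limma adjusted p = 0.140), a ratio of Sle2 to B6 of 0.781 with a 95% interval of 0.667 to 0.914. The dimmer probe (ILMN_1233927) was at 8.75, 8.49 and 8.78 in Sle2 mice and at 9.30, 9.46 and 9.18 in B6 mice. By this probe Sle2 mouse 2 was lowest, and no Sle2 mouse reached the lowest B6 mouse. The difference was -0.64 (SE 0.121, limma adjusted p = 0.0507), a ratio of 0.64 with a 95% interval of 0.529 to 0.775, and 98.3% of all kept probes had a smaller absolute difference. For both Spib probes an exact permutation test over mice (two-sided) gave p = 0.1, the smallest value possible with 3 mice per strain.

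The 2 Spib probes are annotated to the same RefSeq transcript and both were clear of background, with intensities of 399 to 507 in Sle2 mice and 602 to 657 in B6 mice by the dimmer one. The dimmer probe passed the threshold in 5 of the other settings tried at the same threshold. These were no background correction (limma adjusted p = 0.0169), the authors' normalized values (0.019) and a trended robust prior (0.00378). The others were a stricter detection filter (0.0378) and array weights (0.0497). It did not pass with arrays scaled to equal medians (0.0681) or no detection filter (0.107). Nor did it pass with the mouse number as a block (0.0815) or Xist as a covariate (0.065). It passed in none of the 6 fits that left out 1 mouse, where its adjusted p was 0.0662 to 0.156 and its difference -0.71 to -0.55. The mean of both Spib probes was at -0.50 (adjusted p = 0.0433).

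**Figure D2:**
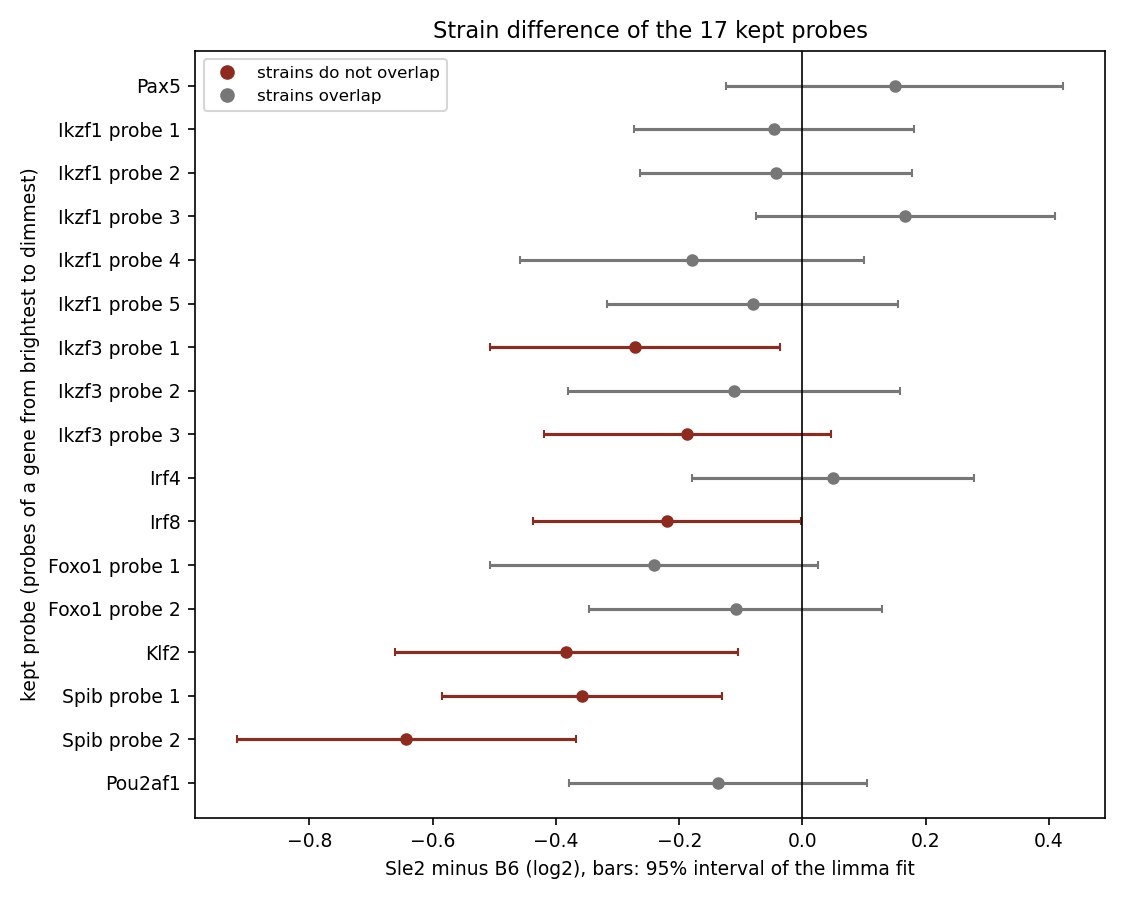
Sle2 minus B6 difference (log2) of the 17 kept probes with the 95% interval of the limma fit, dark red where no mouse of one strain reached the range of the other. Spib, at -0.64 and -0.36, and Klf2, at -0.38, lie farthest from 0. Only the Spib, Klf2 and Irf8 intervals and that of the brightest Ikzf3 probe leave out 0.

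Pou2af1 was at 12.41, 12.49 and 12.59 in Sle2 mice and at 12.50, 12.76 and 12.63 in B6 mice. The strains overlapped through B6 mouse 1, and the difference was -0.14 with a 95% interval of -0.38 to 0.10 (limma, adjusted p = 0.540).

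Foxo1 was at 9.76, 9.82 and 9.59 in Sle2 mice and at 9.79, 9.99 and 10.10 in B6 mice by its brighter probe. B6 mouse 1 lay within the Sle2 range, and the difference was -0.24 with a 95% interval of -0.51 to 0.03 (limma, adjusted p = 0.333). The dimmer Foxo1 probe was at 7.19, 7.37 and 7.35 in Sle2 mice and at 7.51, 7.29 and 7.43 in B6 mice. It had a difference of -0.11, and here B6 mouse 2 lay within the Sle2 range (adjusted p = 0.623).

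Klf2 (ILMN_2604029) was at 11.66, 12.00 and 11.98 in Sle2 mice and at 12.13, 12.33 and 12.33 in B6 mice. All Sle2 mice were below all B6 mice, with Sle2 mouse 1 the lowest. The difference was -0.38 (SE 0.122, limma adjusted p = 0.179), a ratio of 0.767 with a 95% interval of 0.632 to 0.930. By the exact permutation test p was again 0.1. Klf2 passed the threshold with a trended robust prior (adjusted p = 0.0452), and the range over its alternatives was 0.0452 to 0.418.

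Agreement between probes of a gene was tested directly, as the within-array difference between the brightest and the next brightest kept probe. Of 3764 genes with 2 or more kept probes, 0.797% differed between strains in that measure (limma, adjusted p under 0.05), and none of the 4 members with several probes did. The difference between probes was 0.29 for Spib (SE 0.136, adjusted p = 0.328), the brighter probe having the smaller strain difference. It was -0.16 for Ikzf3 (adjusted p = 0.550), -0.13 for Foxo1 (adjusted p = 0.689) and -0.004 for Ikzf1 (adjusted p = 0.988). Over the 6 arrays the 2 brightest probes correlated at 0.86 for Spib, 0.58 for Ikzf3, 0.16 for Foxo1 and -0.30 for Ikzf1, and the brightest Ikzf1 probe correlated at -0.63 with the one that was higher in Sle2. A small difference between probes in the strain comparison thus did not mean that they tracked each other over mice. Each of these 4 genes had the same sign by its 2 brightest probes, as did 59.7% of all such genes.

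**Figure D3:**
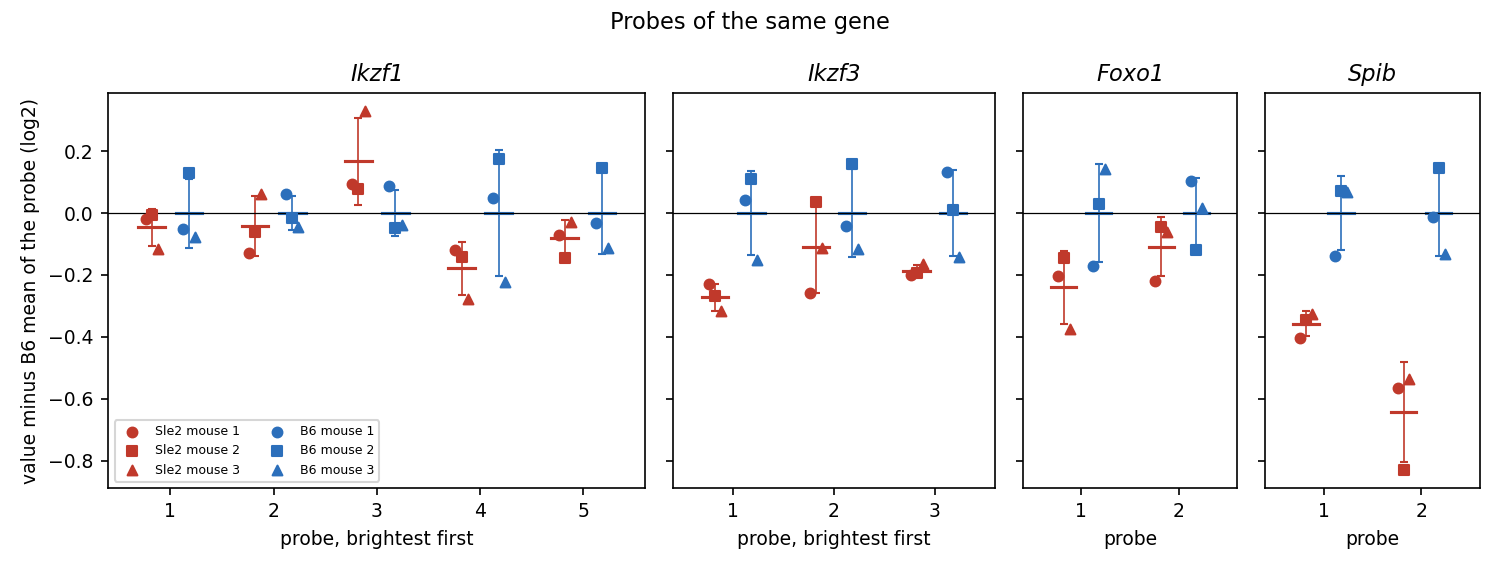
Values of each kept probe of Ikzf1, Ikzf3, Foxo1 and Spib per mouse, as log2 distance from the B6 mean of that probe, with red for Sle2, blue for B6, short lines for means and bars for SD (n = 3 each). Both Spib probes and 2 of the 3 Ikzf3 probes separate the strains, while the third Ikzf1 probe runs the other way from the rest.

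Paralogues of the members were described from 27 genes, of which 17 had a kept probe. None was called, 10 had higher and 7 lower Sle2 means, and the median was 0.03, against 0.02 over all 9297 tested genes by the brightest kept probe, of which 1.04% were called. Unadjusted p-values under 0.05 were found for 5 of the 17, against 16.9% of all tested genes. The smallest p-values were those of Bach1, a repressor of haem-regulated genes (0.44, adjusted p = 0.176), Klf9 (0.31), Spic, an Ets factor of red pulp macrophages (-0.41), and Ikzf5 (0.27). Bach1 was at 8.21, 7.68 and 7.93 in Sle2 mice and at 7.42, 7.51 and 7.57 in B6 mice.

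Of 42 other B lineage transcription factors, 34 were tested and none was called, with 16 higher and 18 lower and a median of -0.02. Unadjusted p-values under 0.05 were found for 6 of the 34, near the 16.9% of all tested genes. Arid3a, a DNA-binding protein of activated and B-1 cells, came closest at -0.55 (limma, adjusted p = 0.0710). It was at 7.97, 7.96 and 8.08 in Sle2 mice and at 8.66, 8.35 and 8.65 in B6 mice. Tcf4, an E protein, was at 0.37 (adjusted p = 0.151) and its relative Tcf3 at -0.27 (adjusted p = 0.203), while Bhlhe40 was at 0.30. Prdm1, the repressor that Bach2 controls in B cells, had no kept probe.

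Known target genes were taken from 5 lists, with 44 of 64 genes tested, 27 higher and 17 lower, and 1 called. Over all 9297 tested genes 5037 were higher, 4259 were lower and 1.04% were called, so these counts lie near the background. The called gene was Emb, a cell surface glycoprotein that Pax5 represses, at 7.89, 7.89 and 7.88 in Sle2 mice and at 7.15, 6.69 and 6.94 in B6 mice. Emb was higher in Sle2 by 0.96 (SE 0.125, limma adjusted p = 0.0105), and it missed the threshold without Sle2 mouse 1, 2 or 3 (adjusted p = 0.0617, 0.0598 and 0.0592). The other genes repressed by Pax5 were not called, with a median over the list of 0.23 in 7 tested genes. Ccl3 (0.23), Xbp1 (0.23) and Notch1 (0.18) had the next smallest p-values. The list median is the value of Ccl3, whose dim probe was detected in only 2 Sle2 mice and 1 B6 mouse. Whether repression by Pax5 differed between the strains was not tested. Of 10 tested genes activated by Pax5, none was called, 8 had lower and 2 higher Sle2 means, and the median was -0.06. Cr2, the complement receptor CD21, was at 0.62 (adjusted p = 0.0878), the B cell inhibitory lectin Siglecg at -0.35 (adjusted p = 0.142), Vpreb3 at -0.50 (adjusted p = 0.177) and Fcer2a, or CD23, at 0.13. Cr2 was at 8.14, 8.05 and 8.21 in Sle2 mice and at 7.43, 7.82 and 7.29 in B6 mice, with no overlap.

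Targets of Foxo1 and Klf2 split evenly, with 5 higher and 5 lower among 10 tested, none called and a median of -0.03. Beside Klf2 itself, the smallest p-values were those of Bcl6 (-0.21), Il7r (0.28) and the homing receptor Ccr7 (-0.25). S1pr1, the Klf2 target that controls egress, had no kept probe. Of 8 tested plasma cell programme genes and genes repressed by Bach2 or Ikzf1, none was called and the median was 0.08. Cebpb, a myeloid factor, was at 0.45 (adjusted p = 0.174), Hmox1 at -0.51, Xbp1 at 0.23 and Sdc1, or CD138, at 0.17. Of 13 tested targets of Irf4, Irf8, Spib and Pou2af1, 10 had higher and 3 lower Sle2 means, none was called and the median was 0.08. Cd40 was at 0.31 (adjusted p = 0.175), Ctsc at 0.30, Bcl2 at 0.23 and Bcl6 at -0.21.

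The genes most like each member were found by Pearson's r over the 6 arrays, as a description. These arrays hold 2 strains, so r also follows the strain difference. Spib was most like Tubb2b (r = 0.9945), Klf2 most like Atp13a3 (r = 0.997), and Pax5, by its dim probe, most like Atp13a1 (r = 0.9986). Each is the highest r among all other tested genes. Between 14 and 81 tested genes had r over 0.95 with a member, 14 for Irf4 and 81 for Spib.

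**Figure D4:**
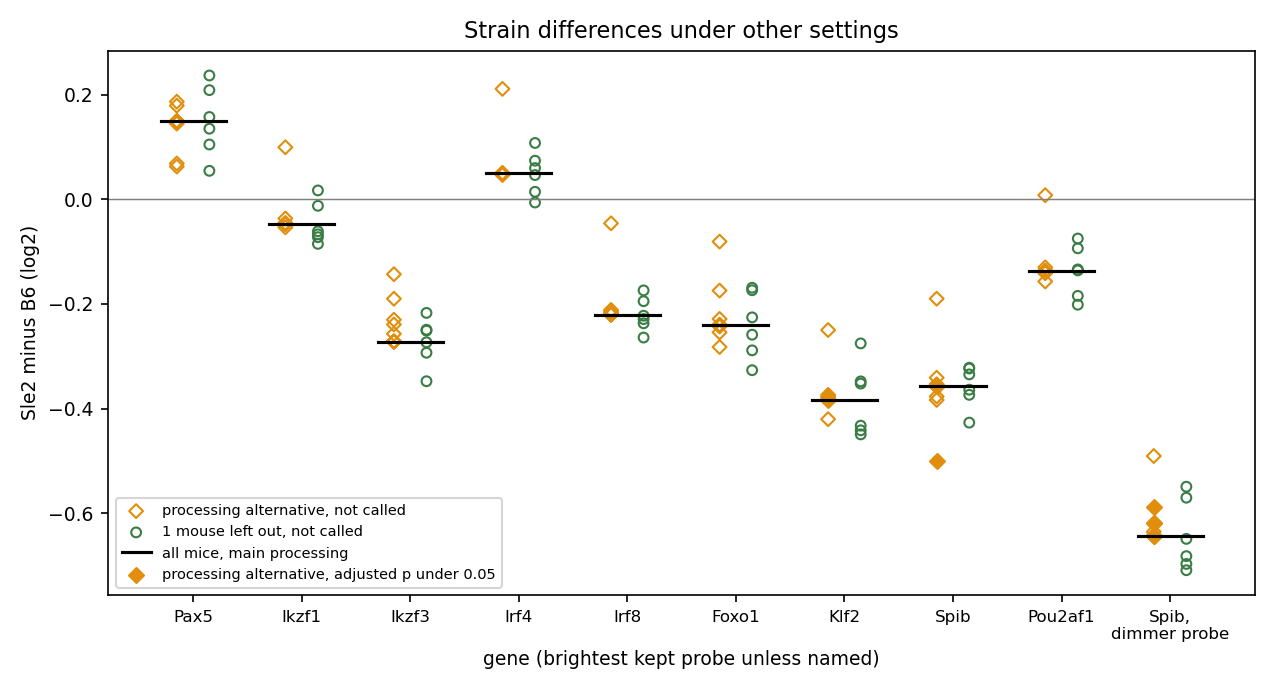
Sle2 minus B6 difference (log2) of the 9 tested members and the dimmer Spib probe, with black lines for all mice, diamonds for other processing and circles for fits without 1 mouse, filled where the adjusted p was under 0.05. Spib, Klf2, Ikzf3, Irf8 and Foxo1 stay below 0 in every fit shown, and Pax5 stays above 0. Ikzf1 and Irf4 each cross 0 when 1 mouse is left out, and Pou2af1 crosses 0 only with arrays scaled to equal medians, where it is at -0.13 relative to the median of all tested genes.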

How the data were processed

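GenomeStudio made the deposited intensities, as named without a version in the submitters' processing notes. From the values, they are linear and neither background-subtracted nor normalized. Per the file headers, each intensity has a deposited detection p-value. The series matrix of the authors holds intensities that, from the values, are quantile-normalized.

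Intensities were corrected with normexp from the detection p-values (offset 16), normalized to equal quantiles and put on the log2 scale by neqc (limma 3.58.1, R 4.3.3), starting from the values the authors deposited. Probes were named from the platform annotation, with 34885 of 45281 probes having 1 symbol, 18 several and 10378 none. The same 17861 probes detected on at least 3 arrays were fitted with lmFit and eBayes, two-sided, with Benjamini-Hochberg adjustment. A gene in a list is its brightest kept probe. Members and lists were chosen with earlier results of these data known. Named list genes are all called ones and the 4 with the smallest p. The number of arrays, 3 per strain, sets the precision. Data for Sle2 against B6 were simulated once with 17861 probes, of which 200 were changed. The fit recovered 12 of 50 probes changed by 0.5 and 39 of 50 changed by 1 (log2). It recovered 49 of 50 changed by 2 and 49 of 50 changed by 3. The whole run had 11 calls among unchanged probes. Mouse numbers were tried as a block, beside other normalizations, filters, priors, weights, an Xist covariate and leaving out each mouse.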

Additional observations from a re-analysis of the deposited data

How the results depend on the processing

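The count of member probes called, 0 with all mice, was 1 without background correction, with the series matrix values, with a strict filter (detection p under 0.01 on all 6 arrays), with array weights and at an adjusted p under 0.1, and 3 with a trended robust prior. That 1 probe was the dimmer Spib probe each time, and the 3 were both Spib probes and Klf2. With single mice left out it stayed at 0. The alternatives for the dimmer Spib probe and the named list genes were chosen after seeing the data.

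All kept probes called, 190 in the main setting, numbered 345 without background correction, 403 with arrays scaled to equal medians, 323 with series matrix values, 111 with no filter, 500 with a trended prior, 111 with Xist as covariate, 480 at an adjusted p under 0.1, and 61 to 271 with single mice left out. Probe pairs called, 30 in the main setting, numbered 79, 98, 17 and 54 without background correction, with series matrix values, with the replicate block and at an adjusted p under 0.1, and 9 to 19 with single mice left out. Other B lineage factors called numbered 1 without background correction, with series matrix values and at an adjusted p under 0.1, 2 with a trended prior, and 0 to 1 with single mice left out. Target genes called numbered 2 without background correction, with equal medians, with series matrix values and at an adjusted p under 0.1, 5 with a trended prior, and 0 to 2 with single mice left out. The cause was not tested, except that fewer samples were fitted where mice were left out.

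Scaling arrays to equal medians moved the median of all tested genes to 0.14, against 0.02 with quantile normalization. There Ikzf1 was at 0.10 and Pou2af1 at 0.0081, the reverse of their sign in the main setting, but at -0.04 and -0.13 relative to that median, and 10 of the 17 member probes were lower. There Spib was at -0.19 and Klf2 at -0.25, or -0.33 and -0.39 relative to the median. With single mice left out Ikzf1 was at -0.085 to 0.017, above 0 without B6 mouse 2, and Irf4 at -0.0059 to 0.108, below 0 without B6 mouse 3. Same-numbered mice of the 2 strains deviated together with correlations of 0.04 to 0.20, against -0.21 to 0.07 for mice with different numbers. The same-numbered correlations were not all over 0.1, so the numbers were not taken as pairs in the main fit. With the mouse number as a replicate block 152 probes and 0 member probes were called. Single dim probes limit Pax5 and Bach2.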
